A study of Mus musculus with 18 samples.

Results

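The genes described here are 9 genes of the glucocorticoid response, Fkbp5, Tsc22d3, Zbtb16, Cdkn1a, Sgk1, Mt1, Mt2, Klf9 and the receptor gene Nr3c1, out of 55450 genes counted in mouse left ventricle. They were taken as a named list that was chosen with earlier results of these data known. The list was matched by Ensembl identifier to GENCODE M21 symbols, and all 9 genes were found, each under 1 identifier, and passed the filter on low counts. RNA was sequenced from 18 hearts of male FVB/N mice aged 20 weeks. The mice were wild type (WT) or carried a transgene that overexpresses Gαq, the alpha subunit of a heterotrimeric G protein, in the heart alone, and the WT mice were littermates. From 4 weeks of age they were fed for 16 weeks, on control chow (CD) or on chow with ertugliflozin at 0.5 mg/g of chow (ERTU), a drug that blocks glucose reabsorption through SGLT2. There were 4 hearts in the group Gαq ERTU, 5 in Gαq CD, 5 in WT ERTU and 4 in WT CD, with 1 library per heart. The hour of tissue collection and the time since the last meal were not given in the sources used here.

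Glucocorticoids such as corticosterone enter the cell and bind the glucocorticoid receptor, which Nr3c1 encodes. The bound receptor leaves its complex of heat shock proteins and co-chaperones, moves to the nucleus and binds DNA, where it raises some genes and lowers others. Circulating hormone follows a daily rhythm and rises with fasting and stress, and the heart has abundant receptor. Fkbp5 encodes FKBP51, a co-chaperone that lowers the hormone affinity of the receptor and so closes a feedback loop. Tsc22d3 encodes GILZ, an anti-inflammatory leucine zipper protein, and Zbtb16 encodes PLZF, a zinc finger repressor. Cdkn1a encodes p21, an inhibitor of cyclin-dependent kinases that p53 also induces, and Sgk1 encodes a serum- and glucocorticoid-induced kinase. Mt1 and Mt2 encode metallothioneins, small proteins that bind zinc and copper, and Klf9 encodes a Krüppel-like transcription factor. Pdk4, against which the genes were also read, encodes a kinase that shuts down pyruvate dehydrogenase and is raised by fasting, fatty acids and glucocorticoids.

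In the deposited table the genes stand as ENSMUSG00000024222 (Fkbp5), ENSMUSG00000031431 (Tsc22d3), ENSMUSG00000066687 (Zbtb16), ENSMUSG00000023067 (Cdkn1a), ENSMUSG00000019970 (Sgk1), ENSMUSG00000031765 (Mt1), ENSMUSG00000031762 (Mt2), ENSMUSG00000033863 (Klf9) and ENSMUSG00000024431 (Nr3c1). On GRCm38, Fkbp5 spans chr17:28399094-28517527 on the minus strand and Cdkn1a lies on the same chromosome at chr17:29090976-29100727 on the plus strand. Zbtb16 spans chr9:48654297-48836222 and Tsc22d3 chrX:140539528-140600659, both on the minus strand. Sgk1 spans chr10:21882184-21999903, Klf9 chr19:23141226-23168134, Mt2 chr8:94172664-94173568 and Mt1 chr8:94179082-94180327, all on the plus strand.

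The promoter windows of Sgk1, Mt2 and Mt1 are shown because they hold the motifs of the regulators that these genes are named for. The windows come from RefSeq (GRCm38.p6), run from 250 bases before to 50 bases after an annotated start, and lie on the plus strand. In the first, chr10:21993640-21993939 at an alternative start of Sgk1, capitals mark a palindromic glucocorticoid response element, AGAACA, any 3 bases, then TGTTCT. In chr8:94172368-94172667 for Mt2 and chr8:94178839-94179138 for Mt1, capitals mark the core of the metal response element, TGCACNC or TGCGCNC on either strand.
Sgk1: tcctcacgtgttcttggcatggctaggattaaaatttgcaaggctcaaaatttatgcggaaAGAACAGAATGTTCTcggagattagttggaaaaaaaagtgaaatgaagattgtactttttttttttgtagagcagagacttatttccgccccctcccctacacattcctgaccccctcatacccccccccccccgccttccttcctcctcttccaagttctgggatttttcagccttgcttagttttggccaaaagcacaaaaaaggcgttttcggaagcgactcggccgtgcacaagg
Mt2: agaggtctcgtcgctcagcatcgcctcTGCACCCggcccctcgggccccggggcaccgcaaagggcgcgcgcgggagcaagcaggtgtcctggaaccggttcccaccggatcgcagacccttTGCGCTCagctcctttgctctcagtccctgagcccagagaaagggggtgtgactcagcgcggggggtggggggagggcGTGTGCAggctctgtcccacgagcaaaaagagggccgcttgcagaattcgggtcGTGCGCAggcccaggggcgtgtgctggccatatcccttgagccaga
Mt1: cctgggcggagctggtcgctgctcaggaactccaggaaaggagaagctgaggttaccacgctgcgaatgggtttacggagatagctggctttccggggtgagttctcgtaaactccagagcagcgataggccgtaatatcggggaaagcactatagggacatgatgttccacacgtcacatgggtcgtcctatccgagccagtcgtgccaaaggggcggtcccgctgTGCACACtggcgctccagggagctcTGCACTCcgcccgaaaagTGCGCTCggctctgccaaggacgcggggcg
The response element of Sgk1 begins at base 62 of its window, counted from 1 at the 5′ end. It was found in 3 of 32817 promoter windows of the genome table (0.00914%). Mt2 held 4 metal response cores and Mt1 held 3, where 1.97% of all windows held 3 or more. Of the 9 genes, 7 had windows, 15 in all, while Zbtb16 and Nr3c1 had none and were not searched. None of the other windows held the whole palindrome, which says only that these exact letters were absent from those windows. A single arm of the palindrome, TGTTCT on either strand, was in 19% of all windows. Mt1 and Mt2 lie next to each other on chromosome 8, and their transcripts shared 0 stretches of 50 bases.

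Total counts ran from 15383566 to 20908363 per library. Gnaq, the gene of the transgene, stood between 45.5 and 229.7 CPM (counts scaled to a common library total) in the WT libraries and between 1641 and 11672 CPM in the Gαq libraries, so that every library matched its genotype label. Its level differed among Gαq hearts, with a mean of 7473 ± 3818 CPM in Gαq CD (SD, n = 5) and 3216 ± 1371 CPM in Gαq ERTU (SD, n = 4). The effect of ERTU in Gαq was estimated without regard to this level. The summed CPM of 10 cardiomyocyte markers was 80065 to 121768 in all 18 libraries, with none of the markers at 0. Libraries are named by group and by the number of their column, which runs across the series. In what follows the libraries of WT CD are given in the order 1, 2, 4 and 5, those of WT ERTU from 11 to 15, those of Gαq CD from 6 to 10, and those of Gαq ERTU as 16, 17, 18 and 20. In this order Gnaq was 6304, 9701, 8045, 11672 and 1641 CPM in Gαq CD and 2392, 5207, 2236 and 3031 CPM in Gαq ERTU. Levels are CPM scaled by TMM factors, and a level compared between genes is CPM per kilobase of exon. In whole tissue, more cells of a type and more RNA per cell cannot be told apart.

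Fkbp5 varied more between hearts of a group than between groups. In WT CD it stood at 104, 29.1, 15.4 and 69.0 CPM, and in WT ERTU at 214, 41.6, 38.8, 143 and 25.5 CPM. In Gαq CD it stood at 82.0, 19.3, 29.2, 21.9 and 75.8 CPM, and in Gαq ERTU at 164, 43.1, 130.1 and 86.8 CPM. Every group held libraries at or below 43.1 CPM and libraries at or above 82.0 CPM, and all groups overlapped. The highest heart of WT CD was 6.76-fold above the lowest of the same group, while the group means ran from 45.7 ± 30.7 CPM for Gαq CD (SD, n = 5) to 106 ± 52.5 CPM for Gαq ERTU (SD, n = 4). Its SD within groups was 1.12 on the log2 scale, where the median over all genes tested was 0.23.

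Tsc22d3, the gene of GILZ, was 201, 119, 95.3 and 198 CPM in WT CD and 204, 127, 189.6, 226 and 96.3 CPM in WT ERTU. The Gαq CD libraries had 143, 91.1, 104, 86.5 and 128 CPM, and in Gαq ERTU 203, 125, 251 and 269 CPM. In Gαq ERTU 3 of 4 libraries lay above the highest of Gαq CD, and library 17 lay within the range of Gαq CD. Zbtb16, the gene of PLZF, was 261, 77.5, 49.5 and 145 CPM in WT CD and 374, 83.4, 118, 204 and 111 CPM in WT ERTU. In Gαq CD it was 168, 34.6, 61.1, 30.2 and 164 CPM, and in Gαq ERTU 169, 109, 179.6 and 120.5 CPM. In Gαq CD, libraries 6 and 10 lay above libraries 7, 8 and 9 for Zbtb16. Libraries 7 and 9 were the lowest of the series, while library 8, at 61.1 CPM, lay within the range of WT CD.

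Cdkn1a, the gene of p21, ran from 10.8 to 62.3 CPM in WT CD, from 17.9 to 171 CPM in WT ERTU, from 13.1 to 76.6 CPM in Gαq CD and from 40.3 to 81.8 CPM in Gαq ERTU. It had the widest range of the 9 genes, 15.8-fold over the 18 libraries, and its groups overlapped. Sgk1, the kinase gene, averaged 48.7 ± 12.9 CPM (SD, n = 5) in Gαq CD. In the other groups its means were 78.4 ± 27.5 CPM for Gαq ERTU (SD, n = 4), 80.1 ± 24.9 CPM for WT ERTU (SD, n = 5) and 75.4 ± 35.6 CPM for WT CD (SD, n = 4). Its lowest library, Gαq CD library 9 at 37.9 CPM, and its highest, WT CD library 1 at 124 CPM, were also at the ends of their groups for Fkbp5 or Zbtb16.

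Mt1 had the highest mean level per length of the 9 genes in each of the 4 groups. Over all libraries Mt1 averaged 101 CPM per kilobase and Mt2 42.3 CPM per kilobase, followed by Klf9 at 36.9, Tsc22d3 at 36.6, Zbtb16 at 25.9, Nr3c1 at 17.2, Sgk1 at 14.3, Cdkn1a at 13.9 and Fkbp5 at 7.82 CPM per kilobase. Below Mt1, neighbours in this order lay closer than the SD between hearts of the more variable gene in at least 3 of 4 groups. Mt2, at 34.5 ± 25.2 CPM per kilobase in WT CD and 25.6 ± 14.7 in Gαq CD (SD), was under Klf9 in both, at 40.1 ± 8.06 and 29.5 ± 5.50. Mt2 was 40.1, 12.6, 6.08 and 22.3 CPM in WT CD and 62.0, 17.4, 12.9, 66.6 and 13.4 CPM in WT ERTU. It was 24.6, 6.63, 16.2, 5.78 and 22.2 CPM in Gαq CD and 34.2, 10.5, 37.6 and 36.8 CPM in Gαq ERTU. Library 17 of Gαq ERTU stood below the other 3 of its group, which lay between 34.2 and 37.6 CPM. Mt1 ranged from 75.8 to 197 CPM in WT CD, from 81.4 to 341 CPM in WT ERTU, from 38.9 to 104 CPM in Gαq CD and from 52.9 to 160.0 CPM in Gαq ERTU. Exons of Mt2 share 432 bases with a gene on the other strand, Gm45774, and exons of Cdkn1a share 273 bases with AC167363.2, also on the other strand. The study's counting used reads of the same strand.

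Klf9 and Nr3c1 were the steadiest of the 9 genes. Klf9 was 229, 191, 139.9 and 212 CPM in WT CD and 284, 195, 173, 201 and 185 CPM in WT ERTU. The Gαq CD libraries held 178, 129, 109, 135 and 158 CPM, and in Gαq ERTU 183, 137, 187 and 174 CPM. Its SD within groups was 0.27 on the log2 scale. Nr3c1, the receptor gene, was 127, 146, 167 and 121 CPM in WT CD and 90.4, 138, 116, 102 and 168 CPM in WT ERTU. Nr3c1 in Gαq CD was 123, 195, 171, 156 and 109 CPM, and in Gαq ERTU 90.8, 139, 113 and 113 CPM. Its highest library, Gαq CD library 7, had the lowest Fkbp5 of its group, and its lowest, WT ERTU library 11, the highest.

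**Figure D1:**
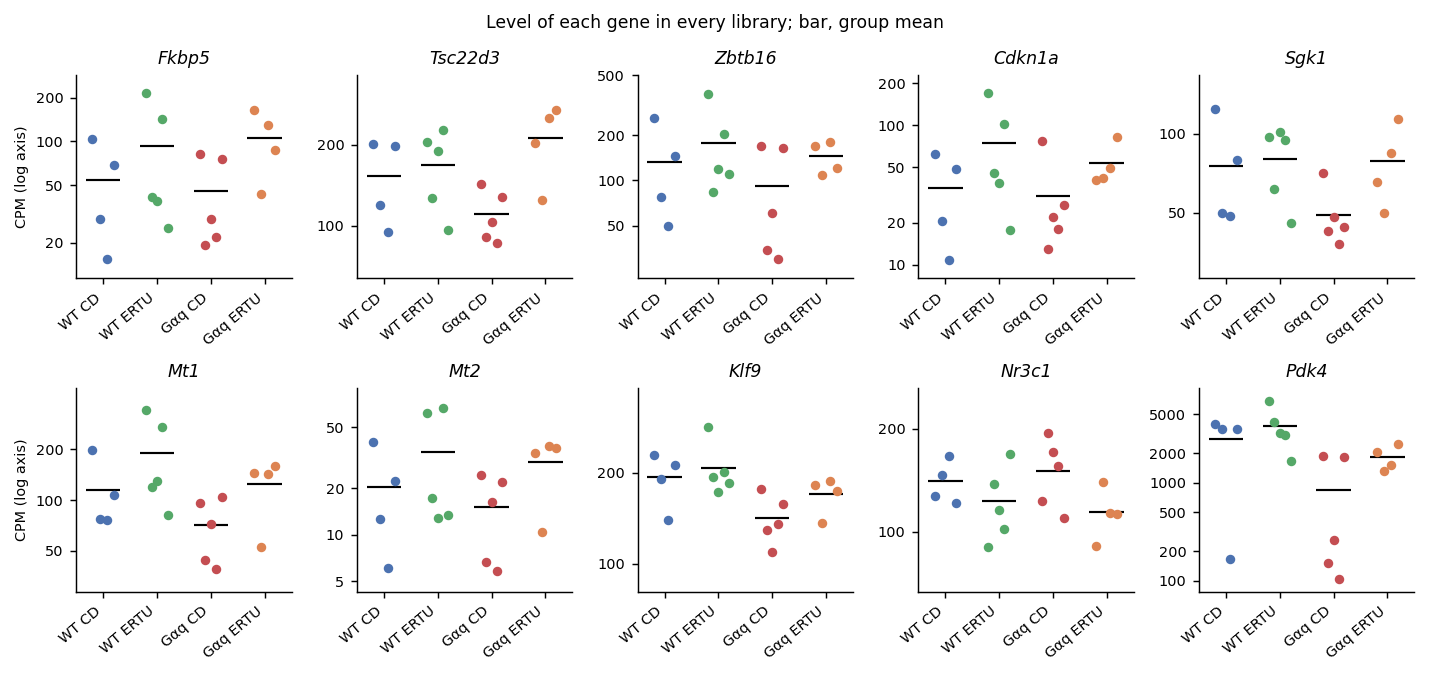
Level of each of the 9 genes and of Pdk4 in every library, in CPM on a log axis, for the 4 groups. Points are libraries in the order of their column numbers and bars are group means. The groups overlap for each gene, and for Pdk4 the libraries WT CD 4 and Gαq CD 7, 8 and 9 lie between 105 and 261 CPM, below the other 14.

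The comparison of genotypes asked whether Gαq hearts differed from WT hearts over both diets. Klf9 was the 1 gene of the 9 called, lower in Gαq by 0.37 on the log2 scale (change -0.37 ± 0.11, SE, edgeR quasi-likelihood adjusted p = 0.0281, 1.29-fold). Over all genes tested, 19.6% of 16270 were called, and 1 of 9 lay below that background. The other 8 estimates all lay below 0, from -0.64 ± 0.29 for Mt1 (adjusted p = 0.129) to -0.0013 ± 0.13 for Nr3c1 (adjusted p = 0.997). The median of the 9 was -0.33, where that of all genes was 0.0038. With voom 4 of the 9 estimates lay above 0, Fkbp5 at 0.47, Tsc22d3 at 0.12, Cdkn1a at 0.063 and Mt2 at 0.20, the median of the 9 was -0.056, and Klf9 was not called (adjusted p = 0.0721). Without 1 of the libraries WT CD 1, WT CD 5, Gαq CD 7, Gαq CD 8, WT ERTU 11 or Gαq ERTU 17, the call of Klf9 was lost, with adjusted p up to 0.0698 over the 18 fits that each left out 1 library.

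The comparison of diets asked whether ERTU shifted the genes over both genotypes. The 8 genes that glucocorticoids induce all had estimates above 0 and the receptor gene an estimate below 0, but none of the 9 was called (edgeR, adjusted over all genes). The largest estimate was that of Fkbp5, 0.99 ± 0.44 (SE, log2 scale, unadjusted p = 0.0338, adjusted p = 0.639). Mt1 had 0.77 ± 0.29 (adjusted p = 0.639), Tsc22d3 had 0.54 ± 0.20 (adjusted p = 0.639) and Nr3c1 had -0.30 ± 0.13 (adjusted p = 0.639). At an unadjusted p under 0.05 there were 6 of the 9 genes, Fkbp5, Tsc22d3, Cdkn1a, Mt1, Mt2 and Nr3c1, beside 1252 of all genes (7.7%), and 0 genes of the whole table were called, 0%. The Wald test of DESeq2 called 2 genes of the table and none of the 9, and limma's voom with sample weights none of the 9. Since the 8 genes rose and fell together from heart to heart, as given below, their common sign was not a count of separate observations.

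The effect of ERTU was then taken in each genotype, and its estimate in Gαq minus that in WT was above 0 for 7 of 9 genes, with no difference called. Without WT CD 1 it was above 0 for 3 of 9, with estimates below 0 for Fkbp5, Zbtb16, Mt1 and Mt2 among others. ERTU in Gαq gave Tsc22d3 0.94 ± 0.27 (SE, log2 scale, adjusted p = 0.653), Fkbp5 1.22 ± 0.63 (adjusted p = 0.656) and Sgk1 0.69 ± 0.29 (adjusted p = 0.653). ERTU in WT gave Tsc22d3 0.13 ± 0.27, Fkbp5 0.77 ± 0.64 and Sgk1 0.09 ± 0.29 (adjusted p = 1 to the third decimal for each). The interaction, which tests the difference between these effects, was 0.81 ± 0.38 for Tsc22d3 (unadjusted p = 0.0449, adjusted p = 1 to the third decimal). Of all genes, 0.00615% were called for ERTU in Gαq, 0% for ERTU in WT and 0% for the interaction, with 1240, 365 and 313 genes at an unadjusted p under 0.05, and DESeq2 called 5, 0 and 0 genes. Of the 9 genes 3, 0 and 1 had an unadjusted p under 0.05.

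Gαq was compared with WT on each diet as well. On CD the estimates ran from -0.68 ± 0.41 for Mt1 to 0.10 ± 0.18 for Nr3c1, and on ERTU from -0.59 ± 0.42 for Mt1 to 0.33 ± 0.27 for Tsc22d3. None of the 9 genes was called in either comparison, where 8.1% of all genes were called on CD and 8.17% on ERTU. The unadjusted p was under 0.05 for 2 of the 9 genes on CD, Sgk1 and Klf9, beside 21% of all genes. On ERTU it was under 0.05 for 0 of the 9, beside 21.7% of all genes. DESeq2 called 1715 genes of the table on CD and 1777 on ERTU, and neither DESeq2 nor voom called any of the 9.

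**Figure D2:**
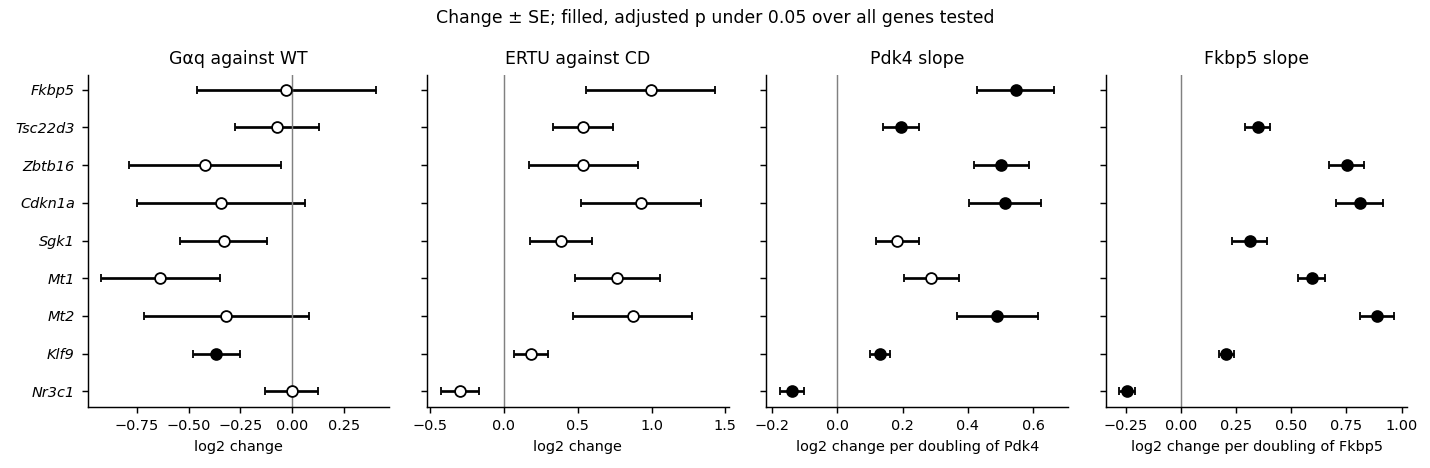
Change of each of the 9 genes by genotype, by diet, and per doubling of Pdk4 or of Fkbp5 within groups, on the log2 scale with SE bars. Filled points have an adjusted p under 0.05 over all genes tested: Klf9 by genotype, none by diet, 7 genes with Pdk4 and all 8 other genes with Fkbp5.

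The hearts of a group differed together. When each gene was taken as its deviation from the mean of its group on the log2 scale, the correlation between any pair of the 8 induced genes was above 0 in 28 of 28 pairs, from 0.57 to 0.95 with a median of 0.81 over the 18 libraries. The correlation of Nr3c1 with each of the 8 was below 0, from -0.90 to -0.60. These are descriptions over 18 libraries that share the same hearts and total counts. WT CD library 1 was the highest of its group for 8 of the 8 genes and WT CD library 4 the lowest for 8 of 8. In WT ERTU, library 11 was the highest for 5 genes and library 15 the lowest for 5. In Gαq CD, library 6 was the highest for 7 genes and library 9 the lowest for 5, and in Gαq ERTU library 17 was the lowest for 7.

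The mean deviation of the 8 genes was 0.93 in WT CD library 1 and -0.93 in WT CD library 4, and it was 1.01 in WT ERTU library 11 and -0.88 in WT ERTU library 15. In Gαq CD it ran from -0.64 in library 9 to 0.84 in library 6, and in Gαq ERTU from -0.73 in library 17 to 0.29 in library 20. Since these are deviations from the mean of each group, hearts above and below 0 occur in every group by construction. Nr3c1 deviated by -0.13 in WT CD library 1 and 0.26 in WT CD library 4, by -0.41 in WT ERTU library 11 and 0.49 in WT ERTU library 15, and by -0.26 in Gαq CD library 6 and 0.40 in Gαq CD library 7.

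**Figure D3:**
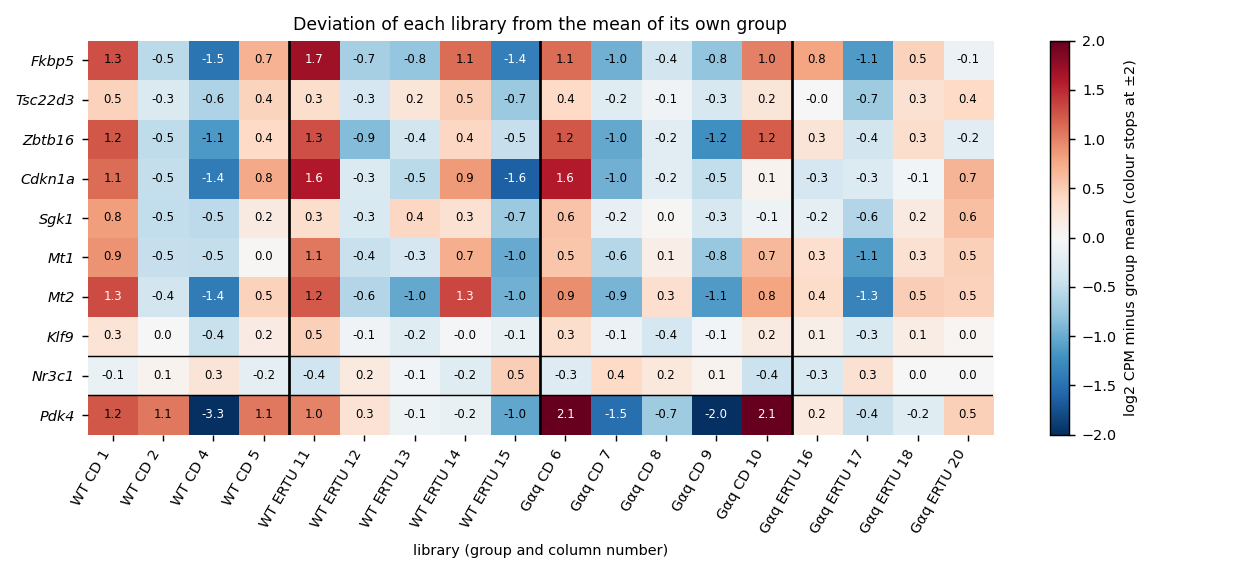
Deviation of every library from the mean of its own group, in log2 CPM, for the 8 induced genes, for Nr3c1 and for Pdk4; black lines part the groups and the receptor and Pdk4 rows. Columns such as WT CD 1 and WT ERTU 11 are above 0 for all 8 genes and below 0 for Nr3c1, while WT CD 2 is above the group mean for Pdk4 and for 1 of the 8.

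Pdk4 was read next to these genes. It was 3976, 3504, 166 and 3500 CPM in WT CD and 6869, 4200, 3194, 3093 and 1677 CPM in WT ERTU. Pdk4 in Gαq CD was 1873, 150.4, 261, 105 and 1818 CPM, and in Gαq ERTU 2041, 1308, 1508 and 2471 CPM. It thus fell into 4 libraries at or below 261 CPM, WT CD 4 and Gαq CD 7, 8 and 9, and 14 libraries at or above 1308 CPM, with a gap of 2.32 on the log2 scale between them. All 4 low libraries were on CD. Their Fkbp5 levels, 15.4, 19.3, 29.2 and 21.9 CPM, overlapped those of 2 high-Pdk4 libraries, WT ERTU 15 at 25.5 CPM and WT CD 2 at 29.1 CPM.

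In a model with the group means and log2 Pdk4, the slope gives the log2 change of a gene per doubling of Pdk4 among hearts of the same group. In the CD groups this slope spans the gap between low and high libraries. The log2 Pdk4 deviation from the group mean was -3.35 in WT CD 4 and ran from -2.02 to 2.14 in Gαq CD. In WT ERTU it ran from -1.03 to 1.00. A single rate over the whole range of Pdk4 was assumed and not tested. Of the 9 genes, 7 were called, 6 with positive slopes, where 3.2% of 16269 genes had a called positive slope, and Nr3c1 with a negative slope, where 1.83% had a called negative one. Fkbp5 had a slope of 0.55 ± 0.12 (SE, edgeR adjusted p = 0.0113), Cdkn1a 0.51 ± 0.11 (adjusted p = 0.00973), Zbtb16 0.50 ± 0.08 (adjusted p = 0.00178) and Mt2 0.49 ± 0.12 (adjusted p = 0.0266). The slopes of Tsc22d3, 0.20 ± 0.06 (adjusted p = 0.047), and Klf9, 0.13 ± 0.03 (adjusted p = 0.0179), were smaller. Nr3c1 fell with Pdk4, with a slope of -0.14 ± 0.04 (adjusted p = 0.0331). Mt1 had 0.29 ± 0.09 (adjusted p = 0.0575) and Sgk1 0.18 ± 0.07 (adjusted p = 0.116), and neither was called.

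The calls on Pdk4 depended on which libraries entered the fit, while the signs of the slopes did not. In a fit of the 14 libraries with high Pdk4, chosen after the data were seen, 0 of the 9 genes were called by edgeR, where 0.387% of all genes were called, and 9 had an unadjusted p under 0.05, where 13.3% of all genes had one. The slopes there were larger, 1.28 for Fkbp5 (adjusted p = 0.178), 1.33 for Cdkn1a (adjusted p = 0.105) and 0.69 for Zbtb16 (adjusted p = 0.302), and 63 genes of the table were called. Over the CD libraries alone 5 genes were called, Fkbp5, Tsc22d3, Zbtb16, Cdkn1a and Mt2, beside 2.43% of all genes. Over the Gαq libraries alone Fkbp5 and Zbtb16 were called, beside 0.676% of all genes. Over the ERTU libraries, which hold no low library, and over the WT libraries, which hold 1, edgeR called 0 of the 9, beside 0.16% and 0.0799% of all genes. At an unadjusted p under 0.05 there were 7 of the 9 over the ERTU libraries, beside 12.6% of all genes, and 8 over the WT libraries, beside 10.6%. Leaving out 1 library at a time gave 3 to 8 called genes, and Fkbp5 and Zbtb16 were called in 18 of 18 such fits. Cdkn1a was called in 17 of them, Klf9 in 16, Mt2 and Nr3c1 in 12 each, and Mt1 in 3. Tsc22d3 was called in 5 of the 18, with edgeR adjusted p up to 0.179. The count was 3 without Gαq CD 6 and 4 without each of WT CD 1, WT CD 4, Gαq CD 7, Gαq CD 10 and WT ERTU 11.

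Because Pdk4 fell into separate clusters, no correlation of levels with Pdk4 is given over all 18 libraries or over the CD libraries. Within the 14 libraries of the high cluster, Klf9 followed Pdk4 with Pearson's r = 0.822 (permutation p = 0.00021, adjusted over all genes 0.0251) and Spearman's rho = 0.719 (permutation p = 0.005). Without WT ERTU 11 and Gαq ERTU 17, the libraries farthest from the median, r was 0.601. Mt1 had r = 0.631 (permutation p = 0.0159, adjusted over all genes 0.137) and rho = 0.468 (permutation p = 0.0937), and r was 0.239 without those 2 libraries. Fkbp5 had r = 0.216 (permutation p = 0.457) and rho = 0.108 (permutation p = 0.716). These 2 genes, Klf9 and Mt1, were those of the 9 at an unadjusted permutation p under 0.05, beside 20.8% of all genes. The same 9 relations were computed within 4 sets of libraries in all. The 14 libraries hold both genotypes, and the permutation of levels did not regard group. By genotype Klf9 was called lower in Gαq, and Pdk4 had an estimate of -1.39 ± 0.54 (SE, edgeR adjusted p = 0.0762). Deviations from the group means were then taken in the same 14 libraries. Past that unadjusted threshold were 8 of the 9 genes, all but Zbtb16, beside 19.7% of all genes. There r was 0.693 for Klf9 (permutation p = 0.0107), 0.636 for Fkbp5 (permutation p = 0.0119) and -0.711 for Nr3c1 (permutation p = 0.00552). The deviations were permuted without regard to group, with no allowance for the group means taken out. These p-values therefore tend to be too small, for the 9 and for all genes alike.

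Within the 9 ERTU libraries Klf9 had r = 0.8 (exact permutation p = 0.00849) and rho = 0.55 (exact permutation p = 0.133), Mt1 had r = 0.742 (exact permutation p = 0.0225) and rho = 0.533 (exact permutation p = 0.148), and Fkbp5 had r = 0.33 (exact permutation p = 0.385) and rho = 0.2 (exact permutation p = 0.613). Without WT ERTU 11 and Gαq ERTU 17 the values of r were 0.196, 0.303 and -0.207, so that these relations rested on those 2 libraries. Within the 9 WT libraries Klf9 had r = 0.819 (exact permutation p = 0.00587) and rho = 0.733 (exact permutation p = 0.0311), and r = 0.861 without WT CD 4 and WT ERTU 15. Fkbp5 had r = 0.7 there (exact permutation p = 0.0134) and rho = 0.633 (exact permutation p = 0.076), and r = 0.537 without those 2. Cdkn1a had r = 0.751 (exact permutation p = 0.00592), Mt2 0.689 (p = 0.0173), Zbtb16 0.685 (p = 0.0276) and Nr3c1 -0.654 (p = 0.0378). Their rho had exact permutation p of 0.076 or more. Without WT CD 4 and WT ERTU 15 their r was 0.608, 0.42, 0.558 and -0.458. Tsc22d3 went from r = 0.644 to 0.0458 and Sgk1 from 0.551 to 0.127 when the same 2 were left out. These p-values within 9 libraries are not adjusted, and the share of all genes at such p-values was not computed. Within the 6 Gαq libraries of the high cluster no gene passed an exact permutation p of 0.05. The smallest was that of Mt1 (r = 0.731, exact permutation p = 0.0944, and rho = 0.771, exact permutation p = 0.103). Klf9 had r = 0.529 (exact permutation p = 0.283) and rho = 0.257 (exact permutation p = 0.658) in these 6 libraries.

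Fkbp5 itself was then used in place of Pdk4, a comparison chosen after the data were seen. All 8 other genes were called in the same kind of model, 7 with positive slopes, where 4.98% of all genes had a called positive slope, and Nr3c1 with a negative slope, where 4.33% had a called negative one. Per doubling of Fkbp5, Mt2 rose by 0.89 ± 0.08 on the log2 scale (SE, adjusted p = 9.41e-07), Cdkn1a by 0.81 ± 0.11 (adjusted p = 9.63e-05), Zbtb16 by 0.75 ± 0.08 (adjusted p = 7.36e-06) and Mt1 by 0.59 ± 0.06 (adjusted p = 7.36e-06). Tsc22d3 rose by 0.35 ± 0.06 (adjusted p = 0.000713), Sgk1 by 0.31 ± 0.08 (adjusted p = 0.0158) and Klf9 by 0.21 ± 0.04 (adjusted p = 0.000903). The receptor gene Nr3c1 fell by 0.24 ± 0.03 (adjusted p = 0.000189). Pdk4 rose by 0.91 ± 0.23 (adjusted p = 0.018), and Gnaq had a slope of -0.21 ± 0.17 (adjusted p = 0.5).

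The count on Fkbp5 was above 0 in each subset of libraries. It was 6 of 8 over the CD libraries, where 1.42% of all genes were called, and 5 over the ERTU libraries, where 2.37% were. Over the WT libraries it was 7, beside 2.77% of all genes, over the Gαq libraries 4, beside 1.92%, and over the 14 libraries with high Pdk4 7, beside 2.7%. The slope of Mt2 was 0.90 on CD (adjusted p = 0.00082), 0.88 on ERTU (adjusted p = 0.00176), 0.90 in WT (adjusted p = 1.64e-05) and 0.86 in Gαq (adjusted p = 0.0147). That of Nr3c1 was -0.23 on CD (adjusted p = 0.0561), -0.26 on ERTU (adjusted p = 0.0171), -0.21 in WT (adjusted p = 0.0208) and -0.31 in Gαq (adjusted p = 0.0227). With Pdk4 and Fkbp5 both in the model, 5 genes kept a called slope on Fkbp5, Zbtb16, Cdkn1a, Mt1, Mt2 and Nr3c1, beside 0.965% of all genes. On Pdk4 edgeR called 0 of the 8 in that model, beside 0.227% of all genes, and Zbtb16 alone had an unadjusted p under 0.05, beside 6.87% of all genes. The difference between the slopes on the 2 genes was not tested, and Fkbp5, as a member of the list, was not chosen independently of it.

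**Figure D4:**
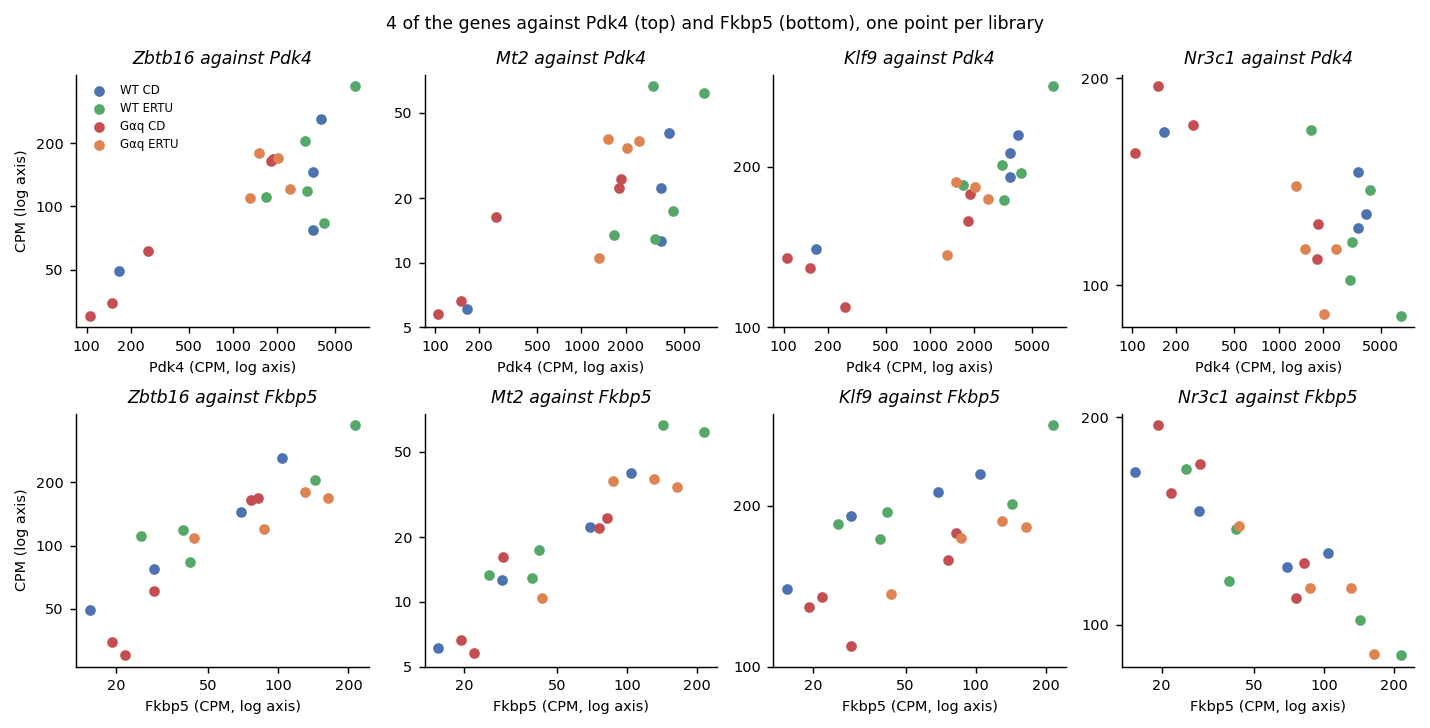
Zbtb16, Mt2, Klf9 and Nr3c1 against Pdk4 (top row) and against Fkbp5 (bottom row), all in CPM on log axes, 1 point per library coloured by group. Against Pdk4 the 4 libraries at or below 261 CPM stand apart to the left, and against Fkbp5 the libraries of the 4 groups overlap along a slope that rises for Zbtb16, Mt2 and Klf9 and falls for Nr3c1.

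Further genes of the response were taken from hand-written lists, also chosen with earlier results of these data known. For every list the background was the share over all genes tested. On Pdk4 3.2% had a called positive slope and 1.83% a negative one, and on Fkbp5 4.98% and 4.33%. By genotype 1582 of 16270 genes were called higher and 1614 lower, and by diet 0%. Of 31 other genes that glucocorticoids induce, 12 had a called positive slope on Pdk4 and 0 a negative one, and 19 had a called positive slope on Fkbp5 and 0 a negative one. The median slope of this list was 0.16 on Pdk4, where all genes had 0.0006, and 0.26 on Fkbp5, where all genes had 0.0030. On Fkbp5, Lcn2, which encodes the iron-carrying lipocalin 2, had a slope of 0.88 ± 0.11 (SE, adjusted p = 4.78e-05), Hif3a 0.87 ± 0.11 (adjusted p = 4.61e-05), the kinase gene Map3k6 0.87 ± 0.04 (adjusted p = 6.8e-12) and Ddit4, whose product restrains mTORC1, 0.74 ± 0.11 (adjusted p = 0.000394). By genotype 2 of the 31 were called higher and 3 lower, among them Crispld2 at 0.47 ± 0.09 (adjusted p = 0.000667) and Plin4 at -0.71 ± 0.18 (adjusted p = 0.00742), beside 19.6% of all genes called in either direction. By diet 0 were called, with 25 of 31 estimates above 0, where the median estimate of all genes was -0.0017. Genes that vary together from heart to heart do not give separate observations of sign.

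Of 9 tested genes that glucocorticoids repress, 0 had a called positive slope and 2 had a called negative one on Pdk4, Tnf and Nos2. On Fkbp5, 3 had a called negative slope. These were the cytokine gene Tnf at -1.21 ± 0.25 (SE, adjusted p = 0.00391), the chemokine gene Ccl2 at -0.48 ± 0.12 (adjusted p = 0.0118) and Nos2, the inducible nitric oxide synthase gene, at -0.42 ± 0.07 (adjusted p = 0.00145). By genotype and by diet 0 of the 9 were called. Il6 was on the list and did not pass the filter on low counts.

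The supply of receptor and hormone was read from 10 genes, of which 5 passed the filter. Hsd11b1, whose enzyme regenerates active hormone in tissue, had a slope of 0.22 ± 0.04 on Fkbp5 (SE, adjusted p = 0.00434) and 0.10 ± 0.04 on Pdk4 (adjusted p = 0.212). The efflux pump gene Abcb1a was lower in Gαq hearts by genotype, at -0.51 ± 0.11 (adjusted p = 0.00196). The mineralocorticoid receptor gene Nr3c2, which also binds glucocorticoids, averaged 25.2 ± 5.43 CPM over the 5 libraries of Gαq CD and 34.8 ± 6.14 CPM over the 4 of WT CD (SD), and was not called in any of these comparisons. The adrenal enzyme genes Cyp11b1 and Cyp11b2 had 0 counts in every library. Of 12 genes for receptor chaperones, Dnaja1 alone had a called slope, on Pdk4, at -0.16 ± 0.04 (adjusted p = 0.0401). By genotype Fkbp4, the co-chaperone that opposes FKBP51, was lower in Gαq at -0.56 ± 0.09 (adjusted p = 7.9e-05) and Hsp90aa1 was higher at 0.47 ± 0.15 (adjusted p = 0.0245). Of 13 genes for receptor coregulators 0 had a called slope on either gene, and by genotype Carm1 was lower at -0.33 ± 0.08 (adjusted p = 0.00726) and Ncoa1 lower at -0.29 ± 0.07 (adjusted p = 0.00751).

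Fasting genes and targets of the fatty acid receptor PPARA moved with Pdk4. Of 12 such genes 10 had a called positive slope on Pdk4 and 9 on Fkbp5, with 0 negative. Angptl4, which inhibits lipoprotein lipase and is also on the list of glucocorticoid-induced genes, had a slope of 1.06 ± 0.10 on Pdk4 (SE, adjusted p = 8.69e-06). Ucp3, the gene of an uncoupling protein, had 0.77 ± 0.05 (adjusted p = 8.54e-08) and Acot1, which encodes an acyl-CoA thioesterase, 0.78 ± 0.10 (adjusted p = 0.000116). By genotype 9 of the 12 were called lower in Gαq, with Acot1 at -1.51 ± 0.48 (adjusted p = 0.028) and Ehhadh at -1.29 ± 0.17 (adjusted p = 1.29e-05), whereas of the 9 glucocorticoid-responsive genes Klf9 was the 1 called. By diet 0 of the 12 were called, with 12 of 12 estimates above 0, and this common sign was not a count of separate observations.

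Genes of other regulators of the 9 were given for comparison. Cdkn1a is also a target of p53, and of 15 other genes of the p53 pathway 0 had a called slope on Pdk4, while on Fkbp5 Trp53inp1 had 0.38 ± 0.05 (SE, adjusted p = 0.000105) and Trp53 -0.16 ± 0.04 (adjusted p = 0.0174). Of 8 tested genes of the zinc and metal response, to which the metallothioneins belong, Gclm and Hmox1 had called slopes on Fkbp5, 0.28 ± 0.05 (adjusted p = 0.000842) and 0.24 ± 0.06 (adjusted p = 0.0146), and both are better known as oxidative stress genes. Of 9 acute-phase genes 4 had called positive slopes on Fkbp5, among them Serpina3n at 0.56 ± 0.07 (adjusted p = 7.75e-05) and Lrg1 at 0.49 ± 0.04 (adjusted p = 4.26e-07). Lcn2 and Cebpd of the acute-phase list are also on the list of glucocorticoid-induced genes. Of 15 clock genes, Per1, itself a glucocorticoid target, had 0.23 ± 0.06 (adjusted p = 0.0247), Cry2 0.14 ± 0.04 (adjusted p = 0.0314) and Bhlhe41 -0.22 ± 0.06 (adjusted p = 0.024) on Fkbp5, and on Pdk4 Cry2 was the 1 called, at 0.10 ± 0.03 (adjusted p = 0.044).

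Relatives of the 9 genes did not all follow them. Of 10 other Krüppel-like factor genes, Klf15 alone was called on Fkbp5, at 0.30 ± 0.05 (SE, adjusted p = 0.000818). On Pdk4, Klf10, Klf11 and Klf15 were called, the largest at 0.24 ± 0.04 for Klf10 (adjusted p = 0.00406). Klf15, like Cdkn1c of the CDK inhibitor genes, is also on the list of glucocorticoid-induced genes. Of 3 other TSC22 family genes 0 were called on either. Of 5 other CDK inhibitor genes Cdkn1b was called on both, at 0.16 ± 0.04 on Fkbp5 (adjusted p = 0.00808). Of 6 genes of the SGK pathway, Ndrg1 was called on Fkbp5 at 0.22 ± 0.05 (adjusted p = 0.0038) and Nedd4l on Pdk4 at 0.12 ± 0.03 (adjusted p = 0.0339). Of 9 immediate early genes 0 were called on Fkbp5, and Nr4a1 on Pdk4 at -0.21 ± 0.06 (adjusted p = 0.0478).

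**Figure D5:**
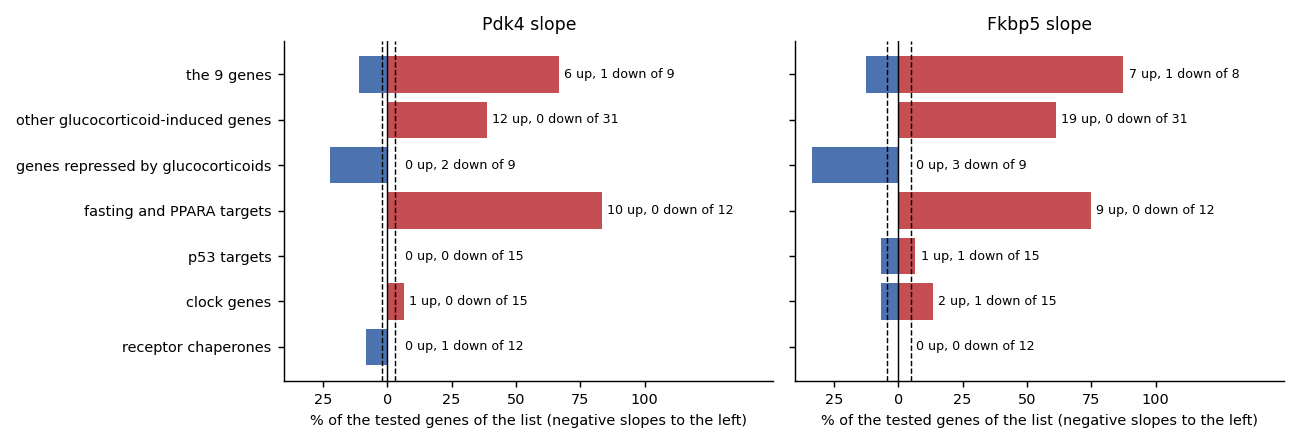
Share of the tested genes of each list with a called slope on Pdk4 (left) or Fkbp5 (right), positive slopes to the right in red and negative to the left in blue, with dashed lines at the shares over all genes. The 9 genes, the other glucocorticoid-induced genes and the fasting genes have called slopes that are mostly positive, with 19 of 31 for the other induced genes on Fkbp5, while p53 targets, clock genes and receptor chaperones have at most 3 called.

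Marker genes of cell types were read beside these slopes. Of 10 cardiomyocyte, 8 fibroblast, 4 smooth muscle, 4 neutrophil, 5 lymphocyte, 6 fat and 3 atrial markers tested, 0 had a called slope on Pdk4 or Fkbp5. Of 8 macrophage markers Cd163 was called on both, of 8 endothelial markers Kdr was called on Fkbp5 with a negative slope, and of 4 red blood cell markers Alas2 was called on Fkbp5. Deviations of the summed marker level correlated with those of Fkbp5 at r = 0.545 for red blood cells, 0.458 for macrophages, 0.454 for fat and 0.37 for neutrophils, and between -0.252 and 0.201 for the other lists. The summed fat markers ran up to 54.5 CPM in Gαq CD and up to 164 CPM in Gαq ERTU, and the summed red blood cell markers ran from 389 to 1451 CPM over all libraries, with no marker of either list at 0 in all libraries. Their part in the slopes was not tested.

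The genes whose deviations from the group means were most like those of each gene were named by Pearson's r over the 18 libraries, as a description. For Fkbp5 they were Map3k6 (0.990), Fam107a (0.973) and Bcl2l1 (0.965), and for Tsc22d3 Cebpd (0.945), Ddit4 (0.942) and Arl4a (0.928). For Zbtb16 they were Xdh (0.917), Fam107a (0.917) and Map3k6 (0.904), for Cdkn1a Tent5a (0.943), Mbd1 (0.921) and S1pr1 (0.915), and for Sgk1 Jdp2 (0.924), Tcim (0.898) and Ddit4 (0.879). The metallothionein genes shared Serinc3, at 0.945 for Mt1 and 0.946 for Mt2, with Spock2 (0.945) and Lvrn (0.935) for Mt1, and Fam107a (0.951) and Slc43a3 (0.947) for Mt2. For Klf9 they were Arhgap27 (0.948), Mocs1 (0.942) and Adgrg1 (0.940). For Nr3c1 they were C130080G10Rik (0.929), Adam17 (0.923) and St8sia4 (0.920), none of which was most like another of the 9. Pdk4 was most like Ucp3 (0.969), Gm17251 (0.959) and Asb4 (0.955), and none of these was among the nearest of the 9 genes.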

How the data were processed

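RNA of 18 frozen left ventricles was sequenced by the study as poly(A) libraries. The authors aligned the reads with STAR 2.6.0c to mm10 and made the deposited counts with featureCounts of Subread 1.6.2, keeping uniquely aligned proper pairs of 1 strand over Ensembl genes, and no normalization was applied to them. The authors also deposited log2-like values from the variance stabilizing transformation of DESeq2 1.23.10, used here only as an alternative level of Pdk4. Symbols came from GENCODE M21, which matched 55190 of 55450 identifiers.

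The 9 genes and the lists were chosen with earlier results of these data known. Of the counts, 16270 genes passed edgeR's filterByExpr over the 4 groups, and the genes left out held 0.0906% of all counts. Tests were edgeR 4.0.16 quasi-likelihood tests with TMM scaling and Benjamini-Hochberg adjustment over all genes tested (threshold 0.05), in R 4.3.3. Genotype and diet came from a model with both factors, the other contrasts from 1 mean per group, and slopes from the group means plus log2 CPM of Pdk4 or Fkbp5, with a prior count of 2. The slope on Fkbp5 was chosen after the data were seen. The SE is the log2 change over the root of the F statistic. Permutation tests were two-sided, with 100000 permutations or exact, in scipy 1.17.1, within sets of libraries whose Pdk4 was not divided by a gap over 1 on the log2 scale with 3 or more libraries on each side. The scripts were tested on simulated data. Total counts were 15383566 to 20908363 per library, and the p-values measure the spread between these libraries. Named genes were the 9, Pdk4, Gnaq, up to 4 called genes of each list with the largest change, and the 3 genes most like each of the 9 by correlation of deviations, at a mean log2 CPM of at least 1; 2 list genes, Hsd11b1 on Pdk4 and Nr3c2, were given outside this rule after their values were seen. A gene that the rule names is not reported here. Alternatives were size factors, filters, DESeq2 1.42.0, voom of limma 3.58.1, subsets of libraries and leaving out each library.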

Additional observations from a re-analysis of the deposited data

Results flagged for a closer look

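There were 44 sets of values, each of 1 gene or total in 1 group. In each, the gap between the library at an end and its nearest neighbour was divided by the range of the group. Genes were taken as log2 CPM for these ratios and totals as counts. In all, 4 gaps passed Dixon's critical ratio of 0.829 for 4 libraries or 0.71 for 5. Chance gives about 1 in 20. In Gαq ERTU, library 17 stood apart for Mt1, at 52.9 CPM where the other 3 libraries had 142 to 160.0 CPM (ratio 0.895), and for Mt2, at 10.5 CPM where the others had 34.2 to 37.6 CPM (ratio 0.926). The same library was the lowest of its group for 7 of the 8 induced genes. Pdk4 in WT CD library 4 was 166 CPM, where the others had 3500 to 3976 CPM (ratio 0.96), and this library was the lowest of its group for all 8 induced genes. The total count of WT ERTU library 15, 16075634, stood apart from the others of its group (ratio 0.71).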

How the results depend on the processing

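No paired analysis was possible because library numbers run through the whole series and none recurs in another group. Outside the leave-one-out fits, 59 counts of called genes stayed within 1.5 times the reported count, 10 fell below and 1 rose above. Counts of 0 that stayed at 0 are among the 59. They came from diet, Gαq on each diet, ERTU in each genotype and the interaction. Single genes kept direction and call in 540 results, lost the call in 50, gained it in 11 and changed sign in 17. The counts that moved and the changes of sign follow, and their causes were not tested. With voom 0 genes were called by genotype, and these estimates changed sign on the log2 scale: by genotype Fkbp5 0.47, Tsc22d3 0.12, Cdkn1a 0.063 and Mt2 0.20, for Gαq on ERTU Zbtb16 0.23, Cdkn1a 0.16, Sgk1 0.19 and Mt2 0.57, for ERTU in WT Sgk1 -0.040, and for the interaction Cdkn1a 0.51. Nr3c1 by genotype became 0.0033 with no filter and 0.0025 with a mean CPM of at least 1. For the Pdk4 slope the count was 0 on ERTU, 0 in WT, 2 in Gαq, 0 with high Pdk4 and 0 with Fkbp5 as a further covariate, where Mt1 became -0.061. For the Fkbp5 slope it was 5 on ERTU, 4 in Gαq and 5 with Pdk4 as a further covariate. For the Pdk4 correlation it was 8 with deviations from the group means, by p-values that tend to be too small. It was 1 without the 2 farthest libraries, where r became -0.216 for Fkbp5, -0.214 for Zbtb16, -0.0812 for Mt2 and 0.148 for Nr3c1.

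When each library was left out in turn, the count ran from 0 to 1 by genotype and for Gαq on CD (1 without WT CD 4, Klf9), from 3 to 8 for the Pdk4 slope, from 7 to 8 for the Fkbp5 slope, from 1 (without WT ERTU 11) to 4 (without WT CD 2) for the Pdk4 correlation, and stayed at 0 for the other 5 comparisons. Estimates with a change of sign ran as follows. By genotype, Fkbp5 from -0.18 to 0.23, Tsc22d3 from -0.17 to 0.032 and Nr3c1 from -0.059 to 0.070. For Gαq on CD, Fkbp5 from -0.57 to 0.27, Zbtb16 from -0.88 to 0.016, Cdkn1a from -0.83 to 0.23, Mt2 from -0.73 to 0.145 and Nr3c1 from -0.0064 to 0.20. For Gαq on ERTU, Fkbp5 from -0.10 to 0.76, Zbtb16 from -0.48 to 0.16, Cdkn1a from -0.78 to 0.062, Sgk1 from -0.27 to 0.13, Mt2 from -0.42 to 0.17 and Nr3c1 from -0.22 to 0.034. For ERTU in WT, Tsc22d3 from -0.035 to 0.29, Zbtb16 from -0.043 to 0.98, Sgk1 from -0.073 to 0.44 and Klf9 from -0.036 to 0.20. For the interaction, Fkbp5 from -0.079 to 1.02, Zbtb16 from -0.32 to 0.70, Cdkn1a from -0.72 to 0.34, Mt1 from -0.31 to 0.41 and Mt2 from -0.36 to 0.60. For the Pdk4 correlation, r of Fkbp5 from -0.0799 to 0.331, of Zbtb16 from -0.0856 to 0.476 and of Nr3c1 from -0.377 to 0.00941.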
